A study of Mus musculus with 12 samples.

Results

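S100 proteins and annexins are calcium-responsive proteins that often work in pairs. Their transcripts were followed here in whole kidneys of mice whose podocytes had been injured with diphtheria toxin. The members were the rows of the deposited count table with the symbols S100a4, S100a6, S100a8, S100a9, S100a10, S100a11, Anxa1, Anxa2, Anxa3 and Anxa5, which are 10 of its 56722 genes, and all 10 had enough counts to be tested. Rows were picked by symbol, but the members were chosen with earlier results of these data known.

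All animals were Pod-TRECK mice, a line in which toxin receptor expression is directed to podocytes, the epithelial cells of the glomerular filter. The control group (3 mice) was untreated, so it carried the same genotype but had no vehicle injection. The other groups (3 mice each) received 100 ng of diphtheria toxin into the peritoneum and their kidneys were taken on day 5, day 14 or day 21. Not given in the sources used here were strain background, age and sex. The samples are whole organs, so a change in a transcript cannot be assigned to a cell type, and fewer cells of a type cannot be told apart from less RNA per cell.

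As background, S100 proteins are small EF-hand proteins that bind calcium and then grip partner proteins, and annexins are proteins that dock onto acidic phospholipid membranes when calcium rises. S100a10 binds the N-terminus of Anxa2 and S100a11 that of Anxa1, forming complexes that link membranes and the cell cortex and take part in membrane repair. S100a8 and S100a9 form calprotectin, an abundant protein of neutrophils and monocytes that can act outside cells as a danger signal, and in the kidney several of these proteins are known from regenerating tubules, immune cells and fibroblasts.

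In the count table (GRCm39) all 6 S100 members lie on chromosome 3: S100a4 at chr3:90511078-90513352, S100a6 at chr3:90520189-90531488, S100a8 at chr3:90576285-90577342, S100a9 on the minus strand at chr3:90599939-90603028, S100a11 at chr3:93427795-93433594 and S100a10 at chr3:93462387-93471950. The annexins are dispersed, with Anxa5 at chr3:36503072-36530043, Anxa3 at chr5:96941198-96993825, Anxa2 at chr9:69360902-69399077 and Anxa1 at chr19:20350792-20368308. These intervals span whole genes, exons and introns together.

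Promoters of 5 members are shown because these genes, all called higher at day 14, hold the AP-1 or C/EBP letters or pair with one that does. Each is the 250 bases before the annotated start in RefSeq on GRCm38.p6, a different build from that of the count table, read 5′ to 3′ on the gene's own strand. Capitals mark matches to 4 short motifs, searched on both strands, whose letters are spelled out after the sequences.
S100a8 promoter, chr3:90668821-90669070, plus strand: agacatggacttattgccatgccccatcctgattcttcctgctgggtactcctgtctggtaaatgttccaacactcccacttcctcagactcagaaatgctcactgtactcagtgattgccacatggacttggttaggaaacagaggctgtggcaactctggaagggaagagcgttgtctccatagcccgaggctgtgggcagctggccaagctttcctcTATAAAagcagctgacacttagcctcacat
S100a9 promoter, chr3:90695722-90695971, minus strand: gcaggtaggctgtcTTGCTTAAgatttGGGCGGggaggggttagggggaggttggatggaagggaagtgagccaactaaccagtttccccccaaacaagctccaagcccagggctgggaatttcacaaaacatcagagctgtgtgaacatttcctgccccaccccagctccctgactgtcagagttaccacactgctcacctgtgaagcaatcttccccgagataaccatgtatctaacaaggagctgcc
S100a11 promoter, chr3:93520246-93520495, plus strand: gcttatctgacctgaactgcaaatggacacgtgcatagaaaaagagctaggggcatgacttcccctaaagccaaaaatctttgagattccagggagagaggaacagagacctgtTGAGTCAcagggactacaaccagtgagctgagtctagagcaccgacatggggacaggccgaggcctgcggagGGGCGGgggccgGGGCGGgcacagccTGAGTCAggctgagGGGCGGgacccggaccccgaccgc
Anxa1 promoter, chr19:20390672-20390921, minus strand: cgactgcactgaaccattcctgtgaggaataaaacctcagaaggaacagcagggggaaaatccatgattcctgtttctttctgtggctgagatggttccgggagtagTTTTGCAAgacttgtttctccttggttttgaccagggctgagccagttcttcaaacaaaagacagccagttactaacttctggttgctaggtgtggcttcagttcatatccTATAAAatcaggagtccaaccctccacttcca
Anxa2 promoter, chr9:69453433-69453682, plus strand: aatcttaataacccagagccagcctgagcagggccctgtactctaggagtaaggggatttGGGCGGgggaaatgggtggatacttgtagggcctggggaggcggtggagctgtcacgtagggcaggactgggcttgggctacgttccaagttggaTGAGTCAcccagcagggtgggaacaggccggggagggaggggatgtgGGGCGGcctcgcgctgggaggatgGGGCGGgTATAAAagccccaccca
RefSeq promoters were matched for 8 of the 10 members, all but S100a10 and Anxa3. The TATA box letters, TATAAA, were found in 4 of the 8, S100a4, S100a8, Anxa1 and Anxa2, against 12.4% of all 32851 promoters of this length. The AP-1 letters, TGANTCA, occurred in S100a11 and Anxa2 (6.75% of all promoters). The C/EBP letters, TTGCNNAA, occurred in S100a9 and Anxa1 (9.56%), in Anxa1 on the opposite strand. The GC box letters, GGGCGG, occurred in S100a9, S100a11 and Anxa2 (32.7%). No match was found in S100a6 or Anxa5. S100a8 and S100a9, whose products pair, shared none of the 4 motifs: S100a8 had the TATA box starting 30 bases before its start and S100a9 had C/EBP and GC box letters. These matches describe letters only and were not tested for binding.

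Libraries held between 31023852 and 46420299 counts. Levels are CPM, read counts relative to library sizes scaled by TMM (trimmed mean of M-values), and fold changes are log2 values ± SE from 1 edgeR quasi-likelihood fit of all 12 libraries, with p-values adjusted by Benjamini-Hochberg over 19821 tested genes and calls at an adjusted p under 0.05. Summed podocyte markers, 279 to 299 CPM in controls, were 83.9 to 101 at day 5 and 113 to 121 at day 14, and summed proximal tubule markers, 8571 to 9552 CPM in controls, marked the tissue as kidney. Day-21 replicate 2 stood apart from its group: on the first principal component of the libraries it lay at -36.8, beside the day-5 libraries (-44.5 to -37.4), while the other day-21 libraries lay at 73.0 and 80.1. Its summed podocyte markers were 222 CPM where replicates 1 and 3 had 99.9 and 82.6. That value lay above every day-5 and day-14 library and below every control. Whether the label or the animal differed was not tested. This library is kept in the fit, and values without it are given beside many of those it moves.

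In control kidneys the members covered a wide range of levels. Per kilobase of the table's gene length, S100a11 was highest at 134 CPM per kb, followed by Anxa5 at 53.3, S100a10 at 39.6 and Anxa2 at 9.43. S100a6 averaged 4.45 CPM per kb, Anxa1 3.08, S100a4 2.43 and Anxa3 2.40, and S100a9 and S100a8 were near the floor at 0.113 and 0.102. The libraries of Anxa1 and S100a4, of S100a4 and Anxa3, and of S100a9 and S100a8 overlapped in this order, and the other neighbours did not. At day 14 the order per length was S100a11 (470), S100a10 (153), Anxa5 (108), Anxa2 (70.8), S100a6 (42.1), Anxa3 (20.7), Anxa1 (19.5), S100a4 (18.9), S100a8 (1.55) and S100a9 (1.40). Anxa3 with Anxa1, Anxa1 with S100a4 and S100a8 with S100a9 overlapped. S100a10 had thus passed Anxa5, and it had done so by day 5, at 112 against 76.5 CPM per kb. These levels depend on the length listed for each gene, which for S100a6 was 3061 bases and for S100a11 511.

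**Figure D1:**
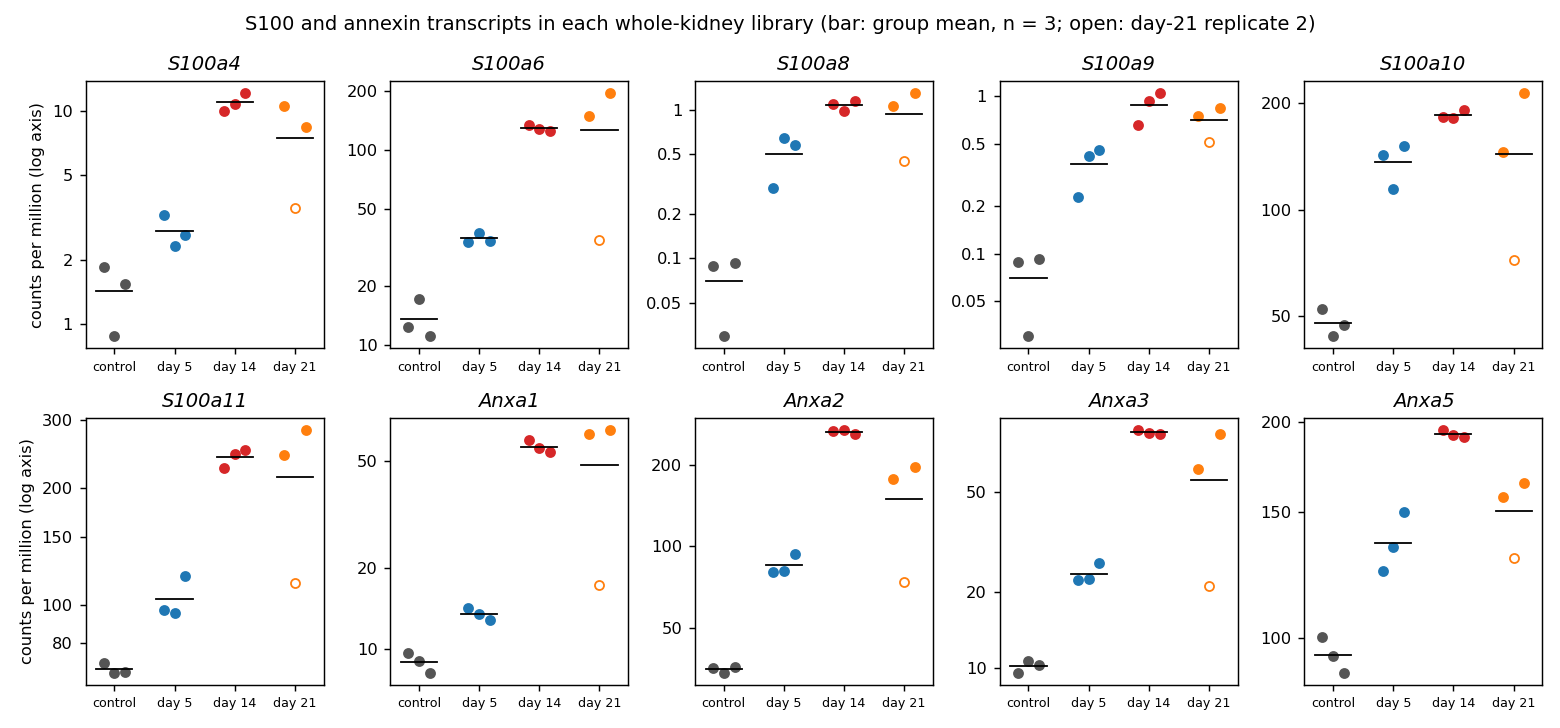
CPM (log axis, TMM-scaled) of each of the 10 transcripts in every library, by group, with bars at group means (n = 3) and day-21 replicate 2 drawn open. For each gene the day-5 libraries lie above the controls and the day-14 libraries higher still, and the open point is the lowest day-21 library in every panel.

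Among the annexins, Anxa2, which assembles with S100a10 on membranes and serves as a surface receptor for plasminogen activation, was read at 35.6, 34.2 and 35.9 CPM in the controls and at 80.6, 80.8 and 93.7 CPM at day 5. It reached 265, 269 and 259 CPM at day 14 and was 177, 73.9 and 196 CPM at day 21. The groups of control, day 5 and day 14 did not overlap, and every day-21 library lay below every day-14 library. The log2 fold change against control was 1.27 ± 0.27 at day 5 (adjusted p = 0.01), 2.91 ± 0.29 at day 14 (adjusted p = 2.69e-05) and 2.08 ± 0.28 at day 21 (adjusted p = 0.000771). In these terms the day-14 mean was 7.51-fold that of controls.

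Anxa3, another calcium-dependent binder of phospholipids, was a lower transcript. It stood at 9.55, 10.6 and 10.2 CPM in controls, 22.3, 22.6 and 26.1 CPM at day 5, 88.9, 86.6 and 85.9 CPM at day 14, and 61.9, 21.1 and 85.3 CPM at day 21. The rise was 1.23 ± 0.36 at day 5, close to the threshold (adjusted p = 0.0443), 3.10 ± 0.38 at day 14 (adjusted p = 9.16e-05) and 2.47 ± 0.37 at day 21. Anxa2 and Anxa3 were the closest of all member pairs in shape over the 12 libraries, with a root mean square difference of 0.19 in log2 CPM after centring. That is a description over libraries that share group, depth and scaling.

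Anxa1, a glucocorticoid-induced protein that restrains inflammation through formyl peptide receptors, rose most between day 5 and day 14. Controls held 9.67, 9.07 and 8.18 CPM and day-5 libraries 14.2, 13.6 and 12.8 CPM, a separation in all libraries. This was not called with all 12 libraries (0.59 ± 0.37, adjusted p = 0.324). Without day-21 replicate 2 the day-5 rise was called (0.59 ± 0.08, adjusted p = 0.000146). At day 14 it was 59.9, 56.0 and 53.9 CPM, a called rise of 2.66 ± 0.38 over control (adjusted p = 0.000214) and of 2.07 ± 0.37 over day 5 (adjusted p = 0.00137). At day 21 the libraries split: 62.9 and 65.3 CPM lay above all of day 14, and replicate 2 lay at 17.4 CPM. The day-21 change over control was 2.44 ± 0.38 with that library and 2.83 ± 0.08 without it.

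Anxa5, which binds phosphatidylserine exposed on dying cells and membrane wounds, was the most abundant of the 4 annexins per length in every group and had the smallest fold change of the 10 members at day 14. It was 100.3, 94.4 and 89.6 CPM in controls, 124, 134 and 149.7 CPM at day 5, 195, 192 and 191 CPM at day 14, and 157, 129 and 164 CPM at day 21. Its 3 groups after toxin each lay wholly above the controls, and day 21 lay wholly between control and day 14. The changes were 0.52 ± 0.11 (adjusted p = 0.00914), 1.02 ± 0.11 (adjusted p = 4.41e-05) and 0.67 ± 0.11 (adjusted p = 0.00194) at days 5, 14 and 21.

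Turning to the S100 partners of annexins, S100a10, the light chain of the Anxa2 complex and the S100 protein that has lost calcium binding, had the largest day-5 change of the members above 10 CPM in controls. Controls held 52.5, 44.0 and 47.4 CPM, and day 5 held 143, 115 and 151 CPM, a rise of 1.51 ± 0.30 (adjusted p = 0.00651). Day 14 held 182, 182 and 191 CPM, 1.95 ± 0.30 over control (adjusted p = 0.000319) and 0.44 ± 0.29 over day 5, which was not called (adjusted p = 0.218). Day-21 libraries spread from 72.2 CPM in replicate 2 to 145 and 214 CPM, with a change over control of 1.58 ± 0.30 (adjusted p = 0.00333).

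Because S100a10 and Anxa2 encode subunits of 1 complex, their count ratio was read within each library, where library scaling cancels. The log2 ratio of Anxa2 to S100a10 was -0.56, -0.37 and -0.40 in controls and -0.82, -0.50 and -0.69 at day 5. It was 0.54, 0.57 and 0.44 at day 14 and 0.29, 0.03 and -0.12 at day 21. The balance thus tilted to Anxa2 in every day-14 library: the mean ratio of 0.737 ± 0.0523 in controls compared with 0.63 ± 0.0708 on day 5, 1.43 ± 0.0666 on day 14 and 1.05 ± 0.153 on day 21 (SD, n = 3). Control and day 5 overlapped, and day 14 overlapped no other group. The ratio is of reads, not of molecules or of protein, and no test was run on it.

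**Figure D2:**
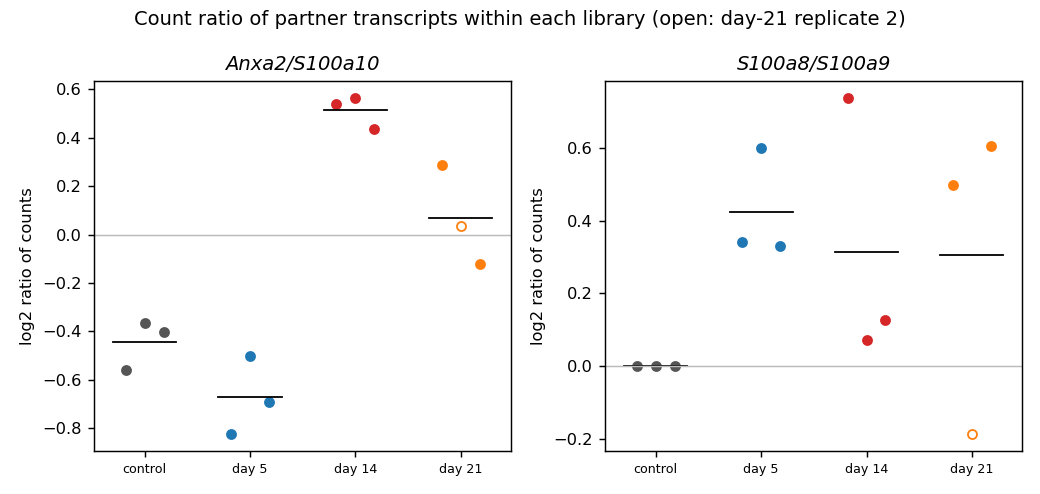
Log2 ratio of read counts within each library (pseudocount 0.5) for Anxa2 over S100a10 and for S100a8 over S100a9, with bars at group means (n = 3) and day-21 replicate 2 drawn open. All 3 day-14 libraries lie at 0.44 or above for Anxa2 over S100a10 while all controls lie at -0.37 or below. The log2 ratio of S100a8 to S100a9 is 0 in all 3 controls, which hold 1 to 3 counts of each gene. It runs from 0.07 to 0.74 at day 14.

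S100a11, the partner of Anxa1, was the most abundant member per length in every group. It stood at 70.8, 66.9 and 67.0 CPM in controls, 97.2, 95.5 and 119 CPM at day 5, 225, 245 and 251 CPM at day 14, and 244, 114 and 283 CPM at day 21. Day 5 lay above control in every library without being called (0.61 ± 0.26, adjusted p = 0.143). The day-5 rise was called without day-21 replicate 2 (0.61 ± 0.09, adjusted p = 0.000399). The day-14 rise was 1.82 ± 0.26 (adjusted p = 0.000227) and the day-21 rise 1.65 ± 0.26 (adjusted p = 0.00165), or 1.94 ± 0.10 without replicate 2.

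S100a6, also called calcyclin and first known from growth-stimulated cells, had the largest day-14 change of the members above 10 CPM in controls, with that of Anxa3 within its SE. It read 12.5, 17.2 and 11.2 CPM in controls, 33.8, 37.5 and 34.3 CPM at day 5, and 134, 128 and 125 CPM at day 14. At day 21 it read 149 and 195 CPM in 2 libraries, above every day-14 library, and 34.5 CPM in replicate 2, within the range of day 5. The day-5 difference of 1.37 ± 0.45 missed the threshold (adjusted p = 0.0677). Without day-21 replicate 2 this difference was called (1.37 ± 0.14, adjusted p = 3.00e-05). At day 14 it was 3.24 ± 0.48 (adjusted p = 0.000266), 9.46-fold, and at day 21 3.21 ± 0.48 (adjusted p = 0.00132), or 3.65 ± 0.16 without replicate 2.

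S100a4, known as fibroblast-specific protein and a binder of nonmuscle myosin, was a low transcript: 1.84, 0.873 and 1.54 CPM in controls, 3.23, 2.32 and 2.61 CPM at day 5, 10.04, 10.8 and 12.2 CPM at day 14, and 10.6, 3.50 and 8.43 CPM at day 21. The change was 0.93 ± 0.38 at day 5, not called (adjusted p = 0.13), 2.96 ± 0.38 at day 14 (adjusted p = 0.000126) and 2.41 ± 0.38 at day 21 (adjusted p = 0.00159). Without day-21 replicate 2 the day-5 change was called (0.93 ± 0.23, adjusted p = 0.00977). Counts of this row cannot be assigned to S100a4 alone. The row summed to 2802 counts over all libraries, the S100a2 row to 2824 and the Gm42674 row to 2835, and they were equal to S100a4 in 4 and 3 of the 12 libraries. By the listed coordinates Gm42674 overlaps S100a4 on the same strand, while S100a2 does not overlap it. Because their counts are nearly equal, these 3 rows are read as 1 measurement.

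S100a8 and S100a9, the subunits of calprotectin, were rare throughout and passed the filter on low counts only through the groups after toxin. S100a8 had 3, 1 and 3 counts in the controls, 9, 23 and 24 at day 5, 57, 40 and 47 at day 14, and 44, 14 and 55 at day 21. S100a9 had 3, 1 and 3 counts in the controls, 7, 15 and 19 at day 5, 34, 38 and 43 at day 14, and 31, 16 and 36 at day 21. No library after toxin was as low as a control for either gene, and the highest S100a8 level in any library was 1.29 CPM, in day-21 replicate 3. With library sizes scaled by TMM, the pooled S100a8 level was 7.39 times that of controls at day 5 (95% counting interval 3.36 to 19.2), 15.3 times at day 14 (7.23 to 38.7) and 13.9 times at day 21 (6.55 to 35.4). For S100a9 the ratios were 5.41 (2.40 to 14.3), 12.2 (5.74 to 31.0) and 10.2 (4.75 to 26.2). These exact intervals cover counting error only, and rest on 7 control counts per gene. Since the filter kept these genes for their high groups, their calls against control are not read as support, and counts of members are given below with and without them.

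Neutrophil markers were also sparse. Of 11 listed markers 3 had enough counts to be tested. The summed level of the 11 was 0.957 to 1.04 CPM in controls, 1.22 to 2.15 at day 5, 4.32 to 5.23 at day 14 and 1.73 to 3.10 at day 21. Of the day-14 mean sum of 4.66 CPM, Csf3r alone made up 2.83 CPM. Ly6g was at 0 counts in every control and day-5 library and at most 6 counts in any library, and Mpo, Elane, Ngp and Camp had at most 4 counts in any library. Retnlg, Cxcr2 and Mmp8, also too low to test, had every day-5 library above every control. Retnlg had 1, 2 and 1 counts in controls, 4, 6 and 14 at day 5 and 8, 2 and 3 at day 14. Cxcr2 had 0, 1 and 0, then 3, 6 and 2, then 11, 5 and 8. Mmp8 had 1, 1 and 0, then 5, 5 and 9, then 8, 12 and 8. Csf3r, the G-CSF receptor of neutrophils and monocytes, rose from 6 to 8 counts in controls to 107 to 137 at day 14 (3.72 ± 0.32, adjusted p = 1.21e-05), and Mmp9 rose by 1.45 ± 0.32 (adjusted p = 0.0025). Csf3r and Mmp9 needed the groups after toxin to pass the filter on low counts, so these calls are not read as support. The third tested marker, Ltf, was at 0.326 to 0.463 CPM in controls and 0.392 to 0.462 CPM at day 14 (0.07 ± 0.37, not called), and at 0.066 to 0.265 CPM at day 5 (-1.24 ± 0.42, not called). Their part in the S100a8 and S100a9 result was not tested.

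At day 5 against control, 6 of the 10 members had risen: S100a8, S100a9, S100a10, Anxa2, Anxa3 and Anxa5. S100a4, S100a6, S100a11 and Anxa1 had not been called, at 0.93, 1.37, 0.61 and 0.59. Of all tested genes 9.77% were called higher in this comparison. Leaving aside S100a8 and S100a9, 4 of 8 members were called, with a median log2 change of 1.08 beside 0.00 over all tested genes. All 8 had every day-5 library above every control, as did 25.3% of tested genes. In the fit without day-21 replicate 2, 20694 genes were tested. All 8, and all 10 with the calprotectin genes, were then called higher, against 17.4% of genes. That library is outside this comparison, but the spread of each gene was estimated over all groups together. Anxa3 lost its call on leaving out any control or day-5 library (1.14 to 1.37 and adjusted p from 1.18e-05 to 0.143 over all alternatives), and Anxa5 when control replicate 3 or day-5 replicate 3 was (0.43 to 0.67, adjusted p from 0.000162 to 0.0661).

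At day 14 against control, all 10 members had risen, between 1.02 for Anxa5 and 3.87 for S100a8, with S100a8, S100a9, S100a6 and Anxa3 above 3 and S100a10, S100a11 and Anxa5 below 2. In this comparison 31.2% of tested genes were called higher and 60% in either direction, so calls were common. Without S100a8 and S100a9 it was 8 of 8, with a median change of 2.78 beside 0.08 over all tested genes. All 8 had every day-14 library above every control (38.6% of genes). All 10 remained called under each of the alternatives run.

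**Figure D3:**
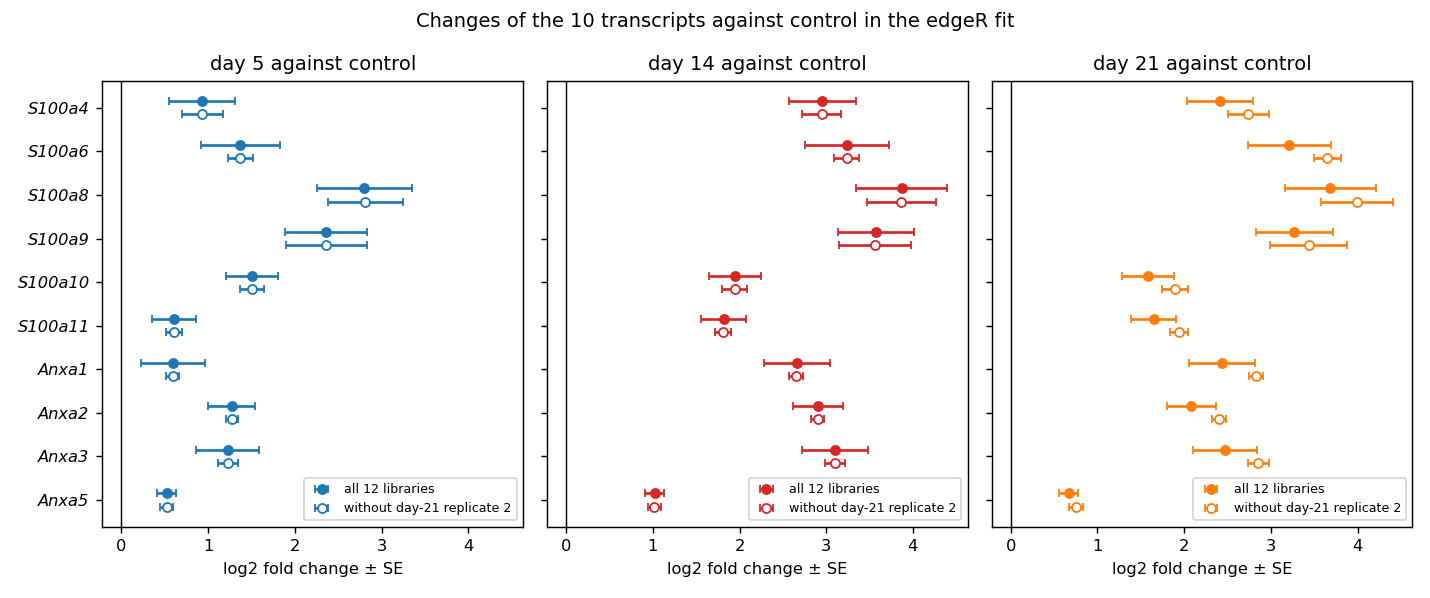
Log2 fold change against control ± SE from the edgeR fit for the 10 transcripts at days 5, 14 and 21, with all 12 libraries (filled) and without day-21 replicate 2 (open). All points lie to the right of 0, and the SE of Anxa1 at day 21 is 0.38 with that library and 0.08 without it, while that of S100a9 is 0.44 and 0.45.

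From day 5 to day 14, 9 of the 10 members rose further, against 24.7% of tested genes, with Anxa1 (2.07 ± 0.37), S100a4 (2.02 ± 0.36), Anxa3 (1.88 ± 0.36) and S100a6 (1.87 ± 0.45) moving most. S100a10 was at 0.44 ± 0.29 and not called, but it was called without day-21 replicate 2 (0.44 ± 0.14; adjusted p from 0.00367 to 0.447 over its alternatives), when all 10 were, and also with library totals only and with only the 6 libraries compared. Without S100a8 and S100a9 the count was 7 of 8, with a median of 1.76 beside 0.03 over all tested genes. S100a8 (1.07 ± 0.39, adjusted p = 0.0419) lost its call on leaving out any day-5 or day-14 library, with 0.80 to 1.65 and adjusted p from 0.00745 to 0.146 over its alternatives, and S100a9 without day-5 replicate 1 (1.22 ± 0.34, adjusted p = 0.0127, and from 0.00278 to 0.0533).

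At day 21 against control, all 10 members were still higher, against 24.3% of tested genes called higher. The changes ran from 0.67 for Anxa5 to 3.69 for S100a8, and without S100a8 and S100a9 all 8 were called, with a median of 2.25 beside 0.07 over all tested genes. Without replicate 2 all 10 were again called, against 33.2% of genes, with S100a6 at 3.65 and Anxa5 at 0.76. Each of the other alternatives also kept all 10 calls.

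Day 21 compared with day 5 gave 6 called rises (15% of tested genes were called higher): Anxa1 1.85 ± 0.37, S100a6 1.84 ± 0.45, S100a4 1.48 ± 0.36, Anxa3 1.25 ± 0.36, S100a11 1.04 ± 0.26 and Anxa2 0.81 ± 0.27. S100a8, S100a9, Anxa5 and S100a10 were not called, at 0.88, 0.91, 0.15 and 0.08. The count rested on single libraries of both groups: all 10 were called without replicate 2, against 27.9% of genes, and 1 or 2 on leaving out any other day-5 or day-21 library. S100a10 changed sign without day-21 replicate 3 (-0.33) and without day-5 replicate 2 (-0.036).

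Between day 14 and day 21 no member was called by edgeR, against 7.57% of genes called lower and 7.03% called higher. At an unadjusted p under 0.05 there were 2 members, Anxa2 (-0.83 ± 0.27, adjusted p = 0.0619) and Anxa5 (-0.36 ± 0.11, adjusted p = 0.0509). DESeq2 called 2 and limma-voom 1. Both genes and Anxa3 had every day-21 library below every day-14 library, as did 17.7% of genes. Leaving out day-21 replicate 2 gave -0.50 ± 0.08 for Anxa2 and -0.26 ± 0.08 for Anxa5, called lower like 11.4% of genes, while S100a6 (0.42 ± 0.15), Anxa1 (0.18 ± 0.08), S100a8 (0.13 ± 0.29) and S100a11 (0.13 ± 0.10) turned positive without being called. Over all alternatives Anxa2 ran from -1.07 to -0.50 with adjusted p from 0.00154 to 0.242, and Anxa5 from -0.58 to -0.26 with adjusted p from 0.00806 to 0.206. Leaving out day-21 replicate 1 gave 2 calls and replicate 3 gave 3.

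Tested jointly over the 3 days, all 10 members differed among the groups, with adjusted p from 0.000105 for Anxa2 to 0.00166 for S100a10. Leaving aside S100a8 and S100a9, every other member was called, over the same range. Of all tested genes 66.1% were called in this joint test.

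The rest of the 2 families did not move as a block. Of 20 other S100 and annexin genes 15 were tested. At day 5 only Anxa6 was called (0.59 ± 0.14, adjusted p = 0.0154), at day 14 8 rose and 2 fell, and at day 21 9 rose and 2 fell. Of all tested genes 9.77%, 31.2% and 24.3% were called higher on these days. The medians of the 15 were 0.15, 0.81 and 0.68, and the rises at days 14 and 21 include S100a2, whose row repeats S100a4. S100a3, with 0, 0 and 1 counts in controls and 13, 14 and 9 at day 14, passed the filter only through groups after toxin. Its place in these counts and medians is not read as support. Without day-21 replicate 2, 16 were tested and the calls were 4 higher and 2 lower, 9 and 3, and 11 and 2. Of all genes in that fit 17.4% were called higher at day 5 and 33.2% at day 21. By its counts the gene added was S100a7a, at 2 to 3 counts in controls. Its place there is not read as support either.

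Of the listed relatives, S100g fell most at day 14. It encodes calbindin-D9k, which buffers calcium in the distal nephron. Its controls ranged from 533 to 598 CPM, day 5 from 456 to 483, and day 14 from 84.0 to 108. Day-21 libraries held 271, 537 and 313 CPM, replicate 2 being the one at 537. The change was -2.61 ± 0.23 at day 14 (adjusted p = 1.52e-05), and S100g was the only listed relative called between day 14 and day 21 (6 were without replicate 2, all higher), rising by 2.02 ± 0.23 (adjusted p = 0.000872), or 1.66 ± 0.11 without replicate 2. Against control its day-21 change was -0.59 ± 0.22 (adjusted p = 0.0485), or -0.96 ± 0.11 without that library. Anxa13, an annexin of intestinal and renal epithelium, chosen after its values were seen, also fell at day 14 (-2.18 ± 0.36, adjusted p = 0.00047).

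Among relatives that rose, Anxa6, a membrane-organizing annexin, went from 50.4 to 55.7 CPM in controls to 125 to 134 at day 14 (1.30 ± 0.14, adjusted p = 4.32e-05). S100a14, an S100 protein of epithelia, went from 0.356 to 0.586 CPM in controls to 4.07 to 4.87 at day 14 (3.22 ± 0.52, adjusted p = 0.000421). At day 21 S100a14 was at 2.09 to 10.7 CPM and 4.01 ± 0.53 above control (adjusted p = 0.000706), or 4.44 ± 0.19 without replicate 2, and at day 5 it was at 0.15 ± 0.57.

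**Figure D4:**
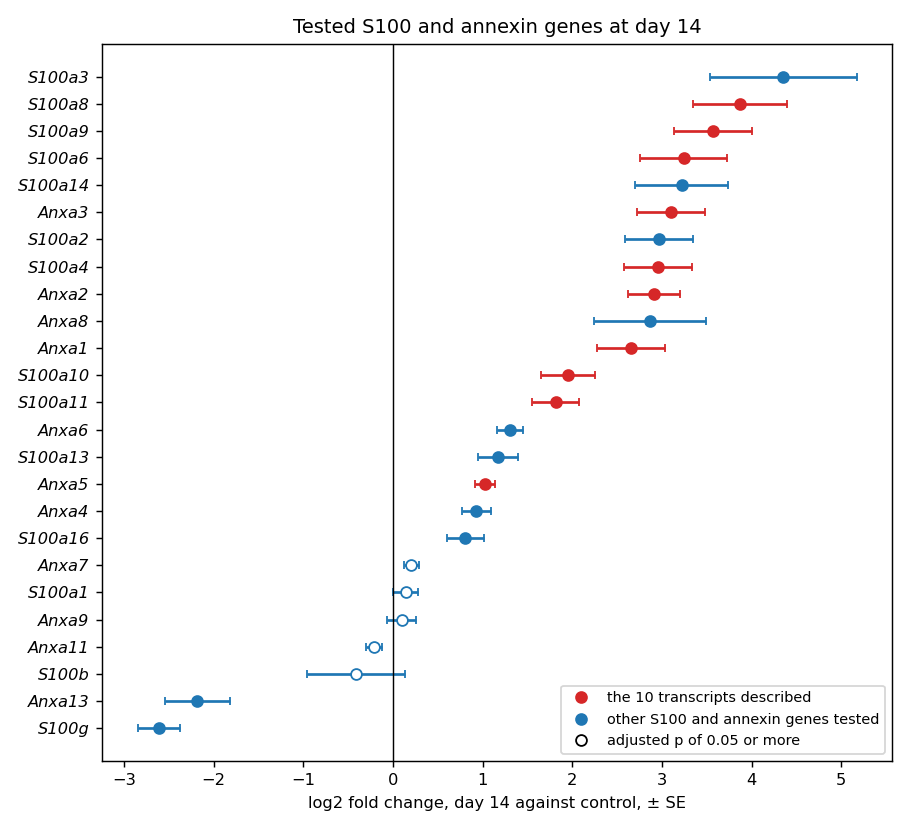
Log2 fold change ± SE at day 14 against control for the 10 transcripts described (red) and the 15 other tested S100 and annexin genes (blue), with open points for an adjusted p of 0.05 or more. S100g and Anxa13 lie at -2.61 and -2.18, and S100a3, at the top, had 1 count over all control libraries, so its size is not a usable fold.

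Receptors, partners and effectors of these proteins were read from a list of 16 genes, of which 15 were tested. At day 5, 4 rose and 1 fell, at day 14 11 rose and 2 fell, and at day 21 9 rose and 1 fell, with medians of 0.26, 1.53 and 0.97, where 9.77%, 31.2% and 24.3% of all tested genes were called higher and 60% in either direction at day 14. The 2 that fell at day 14 were Bsg (-0.94 ± 0.17) and Plau (-0.38 ± 0.15), the latter at 0.35 and not called with unadjusted library sizes. Without day-21 replicate 2 the day-5 calls were 7 higher and 3 lower of 16, where 17.4% of all genes were called higher. Fpr1 and Fpr2 passed the filter on low counts only through groups after toxin. Fpr1 had 2, 0 and 0 counts in controls and 12, 13 and 13 at day 14. Fpr2 had 0, 6 and 1 in controls and 38, 29 and 27 at day 14. Their place in these counts and medians is not read as support. Of the receptors, Tlr4, which calprotectin can engage, rose at day 14 by 2.36 ± 0.32 (adjusted p = 0.000154) and stood at 1.78 ± 0.31 at day 21, or 2.11 ± 0.14 without replicate 2. Ager, another receptor for S100 ligands, was chosen after its values were seen: it fell at day 5 (-0.47 ± 0.09, adjusted p = 0.005) and was at 0.11 ± 0.09 at day 14.

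Plat, tissue plasminogen activator, which Anxa2 with S100a10 docks at cell surfaces, rose from 34.4 to 43.5 CPM in controls to 71.7 to 89.7 at day 5 and 144 to 178 at day 14. It was back at 37.2 to 52.6 CPM at day 21. The changes were 1.05 ± 0.15 (adjusted p = 0.001), 2.03 ± 0.15 (adjusted p = 6.28e-06) and 0.13 ± 0.15, and the fall from day 14 to day 21 was -1.90 ± 0.15 (adjusted p = 0.000514). Myh9, the nonmuscle myosin bound by S100a4, had the other called fall of the list in that interval, at -1.01 ± 0.13 (adjusted p = 0.00163) after a rise of 1.65 ± 0.13 at day 14. Without replicate 2 these falls were -1.85 ± 0.16 for Plat and -0.88 ± 0.09 for Myh9. Dysf, dysferlin, which works with annexins in membrane repair, rose by 0.60 ± 0.14, 1.16 ± 0.14 and 0.97 ± 0.14 at days 5, 14 and 21.

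Genes with the most similar course were ranked by the root mean square difference of centred log2 CPM over the 12 libraries, among 13639 genes. Anxa5 lay nearest Rbm43 (0.05) and Bcl10 (0.08), S100a11 nearest Hoxb9 (0.09) and Cd24a (0.11), and Anxa2 nearest Adamts1 (0.13) and Vim (0.15). Anxa1 was closest to Samd14 (0.13) and Sdc1 (0.16), Anxa3 to Gprc5a (0.16) and Rhou (0.17), and S100a10 to F2rl1 and Pxdc1 (0.17 each). S100a6 matched less closely, with Capg and Nt5c1a at 0.27, as did S100a8 with Tmem45a and Dclk1 (0.36 each) and S100a9 with Dclk1 (0.37) and Col3a1 (0.38). The nearest rows to S100a4 were S100a2 and Gm42674 (0.01 each), which hold nearly the same counts. Among the members themselves S100a6 and Anxa5 were farthest apart, at 1.07.

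Markers of several cell types moved over the same days. Summed injured tubule markers were 963 to 1087 CPM in controls, 5533 to 8463 at day 5, 20250 to 22150 at day 14 and 6228 to 16431 at day 21. Macrophage and monocyte markers were 45.3 to 62.8, 75.0 to 86.5, 890.4 to 920.3 and 227 to 498 CPM, and fibroblast and myofibroblast markers 166 to 254, 334 to 504, 1278 to 1328 and 409 to 1128 CPM. At day 14 all 9 injured tubule, all 12 macrophage and all 9 fibroblast markers were called higher, and all 8 proximal tubule markers lower. Of all tested genes 31.2% were called higher at day 14 and 60% in either direction. At day 5, 6 of the 9 injured tubule, 2 of the 12 macrophage and 2 of the 9 fibroblast markers were called higher. Their medians were 3.20, 0.66 and 0.69, and 9.77% of all tested genes were called higher at day 5. In day-21 replicate 2, injured tubule (6228), macrophage (227) and fibroblast (409) sums were the lowest of their group and the proximal tubule sum (6510) the highest, as its member levels were the lowest. The part of any of these in the members' changes was not tested.

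**Figure D5:**
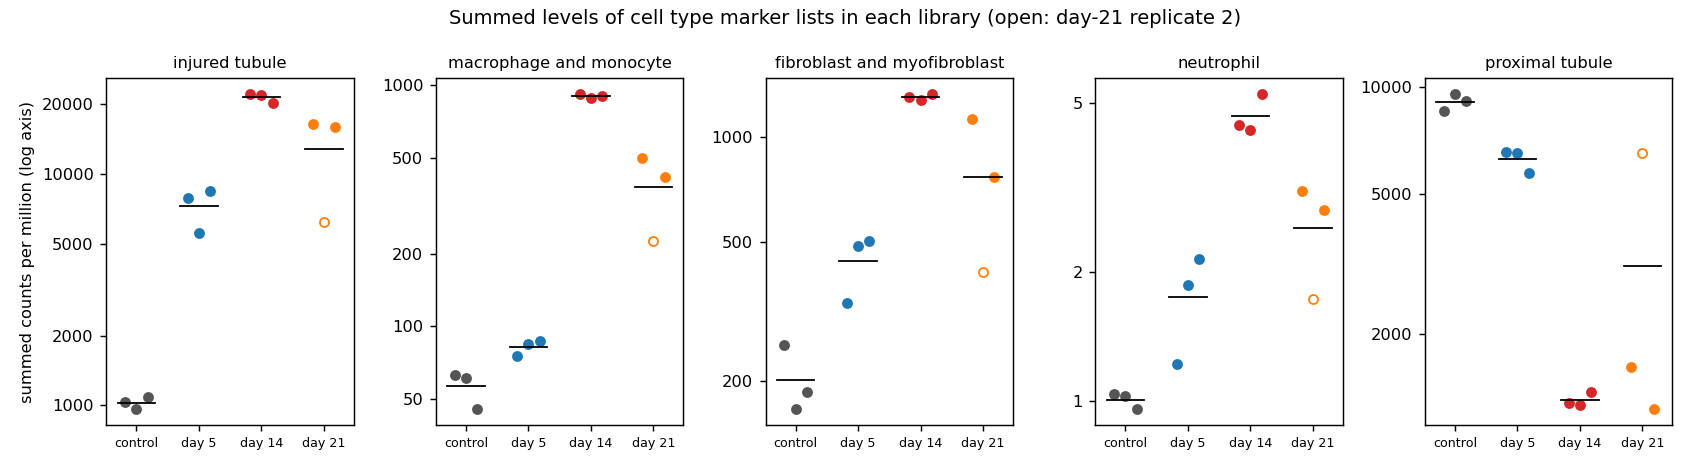
Summed CPM (log axis) of 5 marker lists in each library, by group, with bars at group means (n = 3) and day-21 replicate 2 drawn open. Injured tubule, macrophage, fibroblast and neutrophil sums peak at day 14, where the proximal tubule sums lie between 1260 and 1374 CPM against 8571 to 9552 in controls. Most of the day-14 neutrophil mean (4.66 CPM) is from 1 gene, Csf3r (2.83 CPM).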

How the data were processed

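The values deposited by the authors are raw read counts, in 1 table of 56722 genes with gene lengths and 12 libraries. The labels' protocols describe whole-kidney RNA and poly(A) selection. Per the submitters' processing notes, fastp 0.20.0 and featureCounts were used with GRCm39. Aligner, annotation release, strand setting and handling of multi-mapped reads were not given in the sources used here, so reads of overlapping or near-identical genes may be shared. Rows without a symbol (2803, holding 2.14% of counts) were tested but not named.

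Columns were matched to samples by name, and groups came from the titles. No libraries were duplicates: within groups, chi-square per degree of freedom was at least 4.93 (day-14 replicates 1 and 2). The series design text calls the 3 samples of a group biological replicates, so p-values measure the spread between these mice. All libraries carry 1 batch label.

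Genes kept by filterByExpr (19821) were fitted with edgeR 4.0.16 (limma 3.58.1, R 4.3.3) using TMM factors and 1 coefficient per group over all 12 libraries. The 6 comparisons between groups and a joint test used the quasi-likelihood F test, two-sided, with Benjamini-Hochberg adjustment over all tested genes and calls at 0.05. The SE was taken as |log2 fold change| over the square root of F. Log2 CPM used a prior count of 2. Pooled ratios carry exact 95% intervals that cover counting error only, since reads have no molecular identifiers. The scripts were tested on simulated data. The members, the lists of relatives, partners and markers, the tests and the alternatives were chosen with earlier results of these data known. The naming rule took all members, the list genes with the smallest adjusted p, and the 2 genes most similar to each member among genes averaging a log2 CPM of 1 or more. Anxa13, Ager, Bsg, Plau, Csf3r, Mmp9, S100a3 and S100a7a were named after their values were seen. Alternatives were median-of-ratios size factors, library totals alone, DESeq2 1.42.0, limma-voom, no filter or a minimum CPM of 1 in 3 libraries, a replicate block, only the 6 libraries compared, and leaving out libraries.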

Additional observations from a re-analysis of the deposited data

How the results depend on the processing

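All 10 members stayed above control at days 5, 14 and 21 in every alternative that gave a value, and all 10 calls at days 14 and 21 held in each. At day 5, 4 members were called in every alternative that tested them: S100a8, S100a9, S100a10 and Anxa2. Of these, S100a8 and S100a9 passed the filter only through the groups after toxin, so their calls are not read as support. The count of members called at day 5 ran from 4 to 10 as single libraries were left out, against 6 with all. Between day 5 and day 14 it ran from 7 to 10 against 9, and at days 14 and 21 against control it was 10 throughout. From day 5 to day 21 it ran from 1 to 10 against 6, and was 0 when only the 6 libraries compared were fitted. From day 14 to day 21, where none was called, 1 member was called with median-of-ratios size factors, with library totals only, with limma-voom and with a CPM of at least 1 in 3 libraries, 2 with DESeq2, and 0 to 3 as single libraries were left out. S100a10 from day 5 to day 21 changed sign with limma-voom (-0.071), and ran from -0.33 to 0.39 as single libraries were left out. From day 14 to day 21 the sign also changed on leaving out libraries for S100a6 (-0.48 to 0.42), S100a8 (-0.48 to 0.13), S100a11 (-0.42 to 0.13) and Anxa1 (-0.49 to 0.18), whose highest values are those without day-21 replicate 2. The cause was not tested for any of these. Library totals in place of TMM moved the median of all genes at day 14 from 0.08 to 0.80 and the share of calls that were higher from 52.1% to 85.6%, so sizes are relative to the scaling; at day 21 the share moved from 56.8% to 88.3% and at day 5 from 65.7% to 77.7%.

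The replicate numbers were not taken as pairs, since the correlations of same-numbered deviations ran from -0.14 to 0.17. With the replicate block, 5 members were called at day 5 and 5 from day 5 to day 21, where Anxa3 (1.21, adjusted p = 0.0535) and Anxa2 (0.76, adjusted p = 0.0597) missed the threshold, and the block changed no other member's call, while relatives called at day 5 went from 1 to 2. S100a8 and S100a9, at 1 to 3 counts in controls, are limited by depth.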

Other observations

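S100a7a had too few counts to be tested in the fit of all 12 libraries. It had 160 counts (3.76 CPM) in day-21 replicate 3 and 2 to 11 counts in each of the other libraries.

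S100a3 had 0, 0 and 1 counts in the controls and 13, 14 and 9 at day 14, and 7, 1 and 3 at day 21.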
